A study of Drosophila melanogaster with 9 samples.

Results

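Heat activation and maternal activation of the same piRNA cluster were compared at the level of single small RNA 5′ ends. BX2 is a tandem array of P(lacW) transgenes that yields piRNAs only in its active state. The BX2theta library came from ovaries of a line whose BX2 had become active during culture at 29°C. The BX2* library came from ovaries of a line whose BX2 had been activated by maternally inherited homologous piRNAs. These are 2 of the 9 libraries of the series, with 1 library for each genotype, and they were taken by their genotype labels. The small RNA fraction was gel-purified from dissected ovaries and sequenced, and reads of 18–29 nt were tabulated at P(lacW) and at the 42AB cluster by strand, by length and by the position of their 5′ end.

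The BX2theta flies had returned to 25°C and carried the reporter P(TARGET), a P-lacZ-rosy enhancer trap in the eEF5 gene on the second chromosome. The BX2* flies were kept at 25°C and had no P(TARGET), and their library had already been analysed in an earlier study. A background library, from BX2OFF flies with P(TARGET) at 25°C, in which the cluster is inactive, was measured the same way. In all 3 genotypes the array lies in an intron of AGO1 on the second chromosome, in a w1118 background. Flies homozygous for the array seldom occur and do not breed, so the line is carried over a Cy balancer. Activation route, presence of the reporter and experiment all differ between both active libraries, and their parts in any difference cannot be told apart. P(lacW) and P(TARGET) share the sequence transcribed from the P promoter through lacZ, so that a read from this part can come from either transgene. No replicate error exists for any value below and no test across genotypes was possible.

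piRNAs are small RNAs that guide PIWI proteins to transposon transcripts in the germline. Dual-strand clusters such as 42AB are transcribed on both strands and feed 2 modes of piRNA production. In the ping-pong cycle, cleavage guided by 1 piRNA creates the 5′ end of a partner on the opposite strand. In phased production, a precursor is cut into consecutive piRNAs, so that 5′ ends on the same strand recur at about the length of a piRNA. Double-stranded RNA is instead cut by Dicer-2 into siRNAs of 21 nt.

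At P(lacW) the BX2theta library held 64503 reads, of which 36886 were sense and 27617 antisense, against 37221 in the BX2* library, of which 21315 were sense and 15906 antisense. The BX2OFF library held 902. At 42AB the libraries held 2093549 reads in BX2theta, 2499783 in BX2* and 2075646 in BX2OFF. With 3951462, 3871488 and 3621703 reads that matched miRNAs in BX2theta, BX2* and BX2OFF, the P(lacW) level was 16324, 9614 and 249 reads per 1000000 miRNA reads (miRNA rpm). The tables hold no genes, so that the labelled tissue could be checked only through 42AB, a germline cluster, which was abundant in each library. Intervals in brackets are at 95% and take in the counting error alone, as reads copied from 1 molecule by PCR are not separate observations.

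In miRNA rpm the P(lacW) level was higher in BX2theta in every length class on both strands, but by unequal amounts. The level in BX2theta ranged between 1.13 times that in BX2* for 23 nt sense reads (1210 against 1048 reads, 1.04 to 1.23) and 2.36 times for 18 nt antisense reads (94 against 39 reads, 1.63 to 3.43). The 21 nt class stood at 1560 miRNA rpm in BX2theta against 746 in BX2* on the sense strand, and at 1469 against 765 on the antisense strand. These are ratios of 2.09 (2.00 to 2.18) and 1.92 (1.84 to 2.01). Reads of 23–29 nt, the piRNA lengths, had a smaller ratio, of 1.64 (1.61 to 1.67) sense and 1.62 (1.59 to 1.66) antisense. The 21 nt class, the length of siRNAs, thus exceeded the piRNA classes in its ratio on both strands.

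Expressed per 23–29 nt read, P(lacW) yielded 0.247 reads of 21 nt in BX2theta (0.242 to 0.252) and 0.201 in BX2* (0.196 to 0.207), against 1.01 in BX2OFF (0.880 to 1.16). The control cluster behaved alike. At 42AB the same quotient was 0.0366 in BX2theta (0.0363 to 0.0369) and 0.0239 in BX2* (0.0237 to 0.0241), and it was 0.0396 in BX2OFF. The BX2* library therefore had the lowest quotient at both loci, at an endogenous cluster as well as at the transgene. The part of a difference between whole libraries in the P(lacW) contrast was not tested. At 42AB the 21 nt class was also the only one with a higher level in BX2theta, 1.28 times that in BX2* sense and 1.22 times antisense. All other 42AB classes were lower in BX2theta, at 0.658 to 0.898 times the BX2* level.

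**Figure D1:**
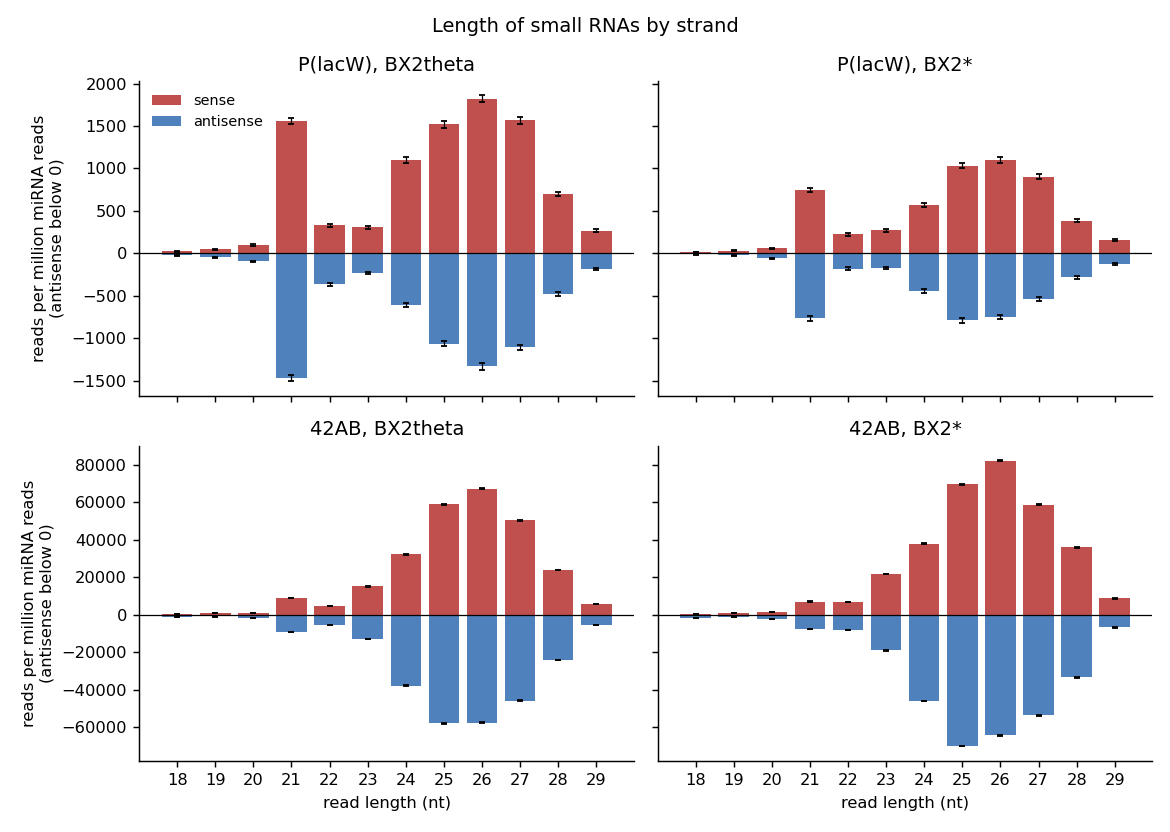
Level of small RNAs of each length at P(lacW) (top) and 42AB (bottom) in BX2theta (left) and BX2* (right), in miRNA rpm, with sense bars above 0, antisense bars below 0 and 95% counting intervals. The 21 nt bar at P(lacW) reaches 1560 sense and 1469 antisense in BX2theta, against 746 and 765 in BX2*, and the tallest antisense bar among 23–29 nt is at 26 nt in BX2theta and at 25 nt in BX2*.

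Within the piRNA lengths, reads of P(lacW) were shorter on average in BX2* on both strands, with the wider gap on the antisense strand. Sense reads peaked at 26 nt in both libraries. Antisense reads peaked at 26 nt in BX2theta (5259 reads, against 4195 at 25 nt) and at 25 nt in BX2* (3038 reads, against 2889 at 26 nt). In miRNA rpm the BX2* classes were 785 (757 to 813) and 746 (720 to 774), which overlap, so that the BX2* mode is not fixed beyond counting error. The mean length of antisense 23–29 nt reads was 25.92 nt in BX2theta (25.90 to 25.94) and 25.77 nt in BX2* (25.74 to 25.80). Reads of 27–29 nt made up 35.3% of antisense piRNA-length reads in BX2theta (34.6 to 35.9) and 30.5% in BX2* (29.6 to 31.3). On the sense strand the gaps were narrower, with means of 25.88 nt in BX2theta (25.86 to 25.90) and 25.81 nt in BX2* (25.79 to 25.83). Reads of 27–29 nt were 34.8% of sense piRNA-length reads in BX2theta and 32.7% in BX2*. At 42AB the antisense mode was 25 nt in both libraries.

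The antisense share of the 23–29 nt reads as a whole was 40.7% in BX2theta (40.3 to 41.2) and 41.0% in BX2* (40.4 to 41.6), which overlap. Single lengths departed from this in opposite directions. At 24 nt antisense reads were 35.7% in BX2theta (34.6 to 36.8) and 43.4% in BX2* (41.9 to 45.0). At 27 nt they were 41.4% in BX2theta (40.4 to 42.3) and 37.1% in BX2* (35.8 to 38.3), and at 22 nt 52.2% (50.3 to 54.0) and 44.2% (41.8 to 46.7). The near-equal total therefore hides differences between lengths that exceed counting error, whose spread between libraries of 1 genotype is unknown.

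As a summary of the whole spectrum, the distance between both libraries was taken as the sum of absolute differences between the shares of all classes of strand and length, divided by 2. It was 6.15% at P(lacW) and 3.51% at 42AB. At 42AB the distance of BX2theta from BX2OFF was 1.77% and that of BX2* from BX2OFF 2.48%. Both libraries with the reporter were thus closer to each other at the control locus than either was to BX2*.

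**Figure D2:**
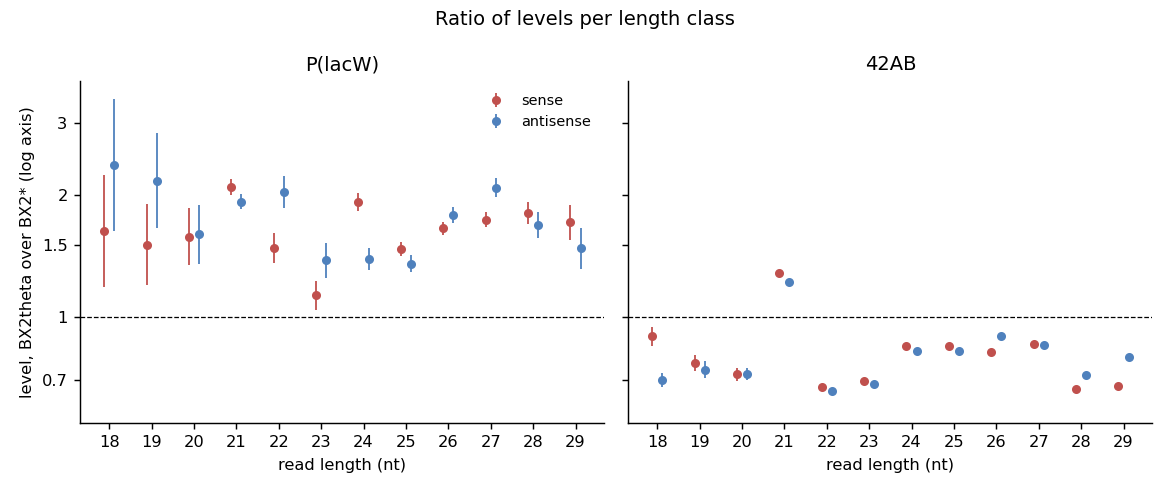
Ratio of the BX2theta level to the BX2* level for each length class and strand at P(lacW) (left) and 42AB (right), on a log axis with 95% counting intervals and a dashed line at 1. All P(lacW) points lie above 1, between 1.13 and 2.36, and at 42AB only the 21 nt points do, at 1.28 and 1.22.

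Of the 21380 combinations of strand and position at P(lacW), BX2theta reads began at 7365 and BX2* reads at 5844. Both libraries shared 4446 of them, which are 60.4% of those of BX2theta and 76.1% of those of BX2*. Since the BX2theta library was deeper, it was also taken at 37221 reads, by the number of positions expected in a random draw. It then held 6138 positions against 5844 in BX2*, and 3976 were shared, 64.8% of the BX2theta positions and 68.0% of the BX2* positions. Much of the excess of occupied positions thus went with depth. At 42AB, 95781 positions were occupied in BX2theta and 96108 in BX2*, and 67809 were shared (70.8% and 70.6%).

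Most reads of both active states began where the other also had reads. Shared positions took 89.4% of the P(lacW) reads of BX2theta (89.1 to 89.6) and 92.7% of those of BX2* (92.4 to 93.0). At equal depth these were 89.4% in BX2theta and 90.1% in BX2*. Sense reads lay on shared positions more often than antisense reads in both libraries, with 90.9% and 87.4% in BX2theta and 94.5% and 90.3% in BX2*. Of the 1538 antisense reads of BX2* on private positions, 481 began at 1 position. At 42AB, where each library was far deeper, shared positions took 97.1% of the reads in BX2theta and 97.7% in BX2*.

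The BX2OFF reads of P(lacW), few as they were, lay mainly on the same positions. Of the 902 reads, 82.0% began at positions shared by both active libraries, 6.87% at positions private to BX2theta, 3.77% at positions private to BX2* and 7.32% at positions in neither. The shared positions are 4446 of the 21380, and 10.5% of them held a BX2OFF read.

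Shared positions were not used to the same extent. Over the 4446 positions with reads in both libraries, the read numbers had a Spearman correlation of 0.644, against 0.731 over 67809 positions of 42AB. The points share library, depth and base composition, and no p is given. The Morisita index, which is 1 for identical profiles and corrects for depth, was 0.797 at P(lacW), with 0.850 on the sense and 0.646 on the antisense strand. At 42AB it was 0.840 between BX2theta and BX2*, 0.916 between BX2theta and BX2OFF and 0.849 between BX2* and BX2OFF. By this index the antisense profile of the transgene was the least alike. Antisense position 461, with 0 reads in BX2theta and 481 in BX2*, enters this value, which was not recomputed without it. The Spearman correlations of the strands of P(lacW) lay closer together, at 0.662 sense and 0.622 antisense.

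Both profiles were in register. When the BX2* profile was moved along that of BX2theta, 29685 reads matched at no offset, 4.30 times the mean of offsets of 6 to 10 nt, and 11781 and 11936 matched at offsets of 1 nt either way. The same value at 42AB was 8.30.

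**Figure D3:**
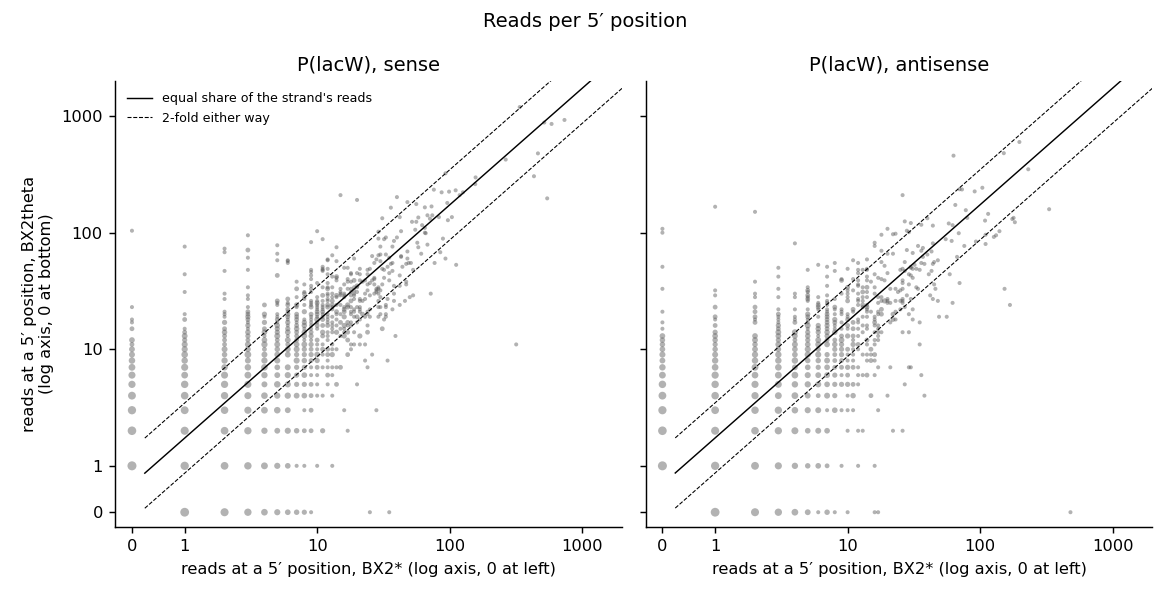
Reads at each 5′ position of P(lacW) in BX2theta (vertical) and BX2* (horizontal) on the sense (left) and antisense (right) strand, on log axes with 0 at the edge, where larger dots stand for more positions with the same pair of read numbers. The solid line marks equal shares of the strand's reads and the dashed lines 2-fold differences, and the lone dot at the lower right of the antisense panel is position 461, with 0 reads in BX2theta and 481 in BX2*.

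The most used sense positions were largely the same in both active states. Of the 10 with most reads in each library, 8 were in both lists, and likewise 66 of 100. At position 6665, 881 BX2theta reads and 518 BX2* reads began, 2.39% and 2.43% of their strand, a ratio of shares of 0.983 (0.883 to 1.09). Position 8767 took 857 reads in BX2theta and 588 in BX2* (2.32% and 2.76%), and position 6155 took 479 and 464 (1.30% and 2.18%). The first rank differed, being at 1720 in BX2theta, with 1196 reads or 3.24% against 338 or 1.59% in BX2* (ratio 2.04, 1.81 to 2.30). In BX2* it was 1835, with 927 reads in BX2theta and 736 in BX2* (2.51% and 3.45%). At 1467 the gap was wider, with 197 reads in BX2theta and 545 in BX2*, a ratio of 0.209 (0.178 to 0.246). BX2OFF had 8 reads at 1835, 6 at 8767, 3 at 6665 and none at the other 3.

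Position 1467 had rank 19 in BX2theta and rank 3 in BX2*. The other sense position of the BX2* list outside that of BX2theta was 8589, singled out after its values were seen. It held 11 reads in BX2theta against 318 in BX2*, where it had rank 8, a ratio of 0.0200 (0.0110 to 0.0365).

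On the antisense strand only 3 of the 10 most used positions were in both lists, although 65 of 100 were. These 3 were 2317, 4011 and 228. Position 2317 led in BX2theta, with 600 reads or 2.17% against 198 or 1.24% in BX2*, and 228 had 481 reads in BX2theta and 151 in BX2* (ratio 1.83, 1.53 to 2.20). Position 4011 had 350 and 231 reads, with a ratio of 0.873 (0.740 to 1.03). Further from equal were 1175, with 458 reads in BX2theta and 63 in BX2* (ratio 4.19, 3.22 to 5.44), and 9426, with 159 and 332 (0.276, 0.229 to 0.333). Position 4004 had 123 and 183 reads (0.387, 0.308 to 0.486) and 2262 had 243 and 104 (1.35, 1.07 to 1.69).

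At antisense position 461 BX2theta had 0 reads, so that its share of the strand was at most 0.0109% (3 reads), against 481 reads in BX2*, where it led the strand with 3.02%. In BX2theta 167 reads began 2 nt away, at 459, and 33 at 458, where BX2* had 1 and 0. Within 1 nt of 461 BX2theta had 0 reads as well. The same short stretch thus held a strong end in both libraries, but not at the same nucleotide. By the study's map it lies in the part of P(lacW) that is shared with the reporter, where the numbering of the map was taken to be that of the tables.

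Positions private to 1 library were mostly rare ends. In BX2theta 2919 positions were private and 48.5% of them had a single read, and in BX2* 1398 were private and 68.6% had a single read. Of these private positions, 44 of 2919 in BX2theta and 6 of 1398 in BX2* had at least 10 reads. Their share of all positions with at least 10 reads was not taken. These counts and single-read shares were not taken at equal depth, with 64503 P(lacW) reads in BX2theta and 37221 in BX2*. How far the contrast goes with depth was not tested. The antisense ones with most reads in BX2theta were 3353 (108 reads), 1465 (100 reads) and 8838 (51 reads), and the sense ones were 6639 (104 reads), 8383 (23 reads) and 6081 (18 reads). In BX2*, besides 461, they were 956 (17 reads) and 8490 (16 reads) antisense, and 8918 (35 reads), 4688 (25 reads) and 7550 (9 reads) sense. None of these 12 held a read in BX2OFF, which had reads at only 1.68% of all positions private to BX2theta and 1.86% of those private to BX2*.

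At sense position 6639 BX2theta had 104 reads and BX2* had 0 within 3 nt. At 6634, 5 nt before it, BX2theta had 22 reads and BX2* had 21.

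At 42AB the most abundant private positions were 10845 sense (1445 reads) and 200175 antisense (193 reads) in BX2theta, and 96142 sense (307 reads) and 67408 antisense (78 reads) in BX2*. BX2OFF held 160 reads at 200175, 6 at 10845, 5 at 96142 and 0 at 67408. Private positions with at least 10 reads were 244 of 27972 in BX2theta and 378 of 28299 in BX2*, again not at equal depth. Such ends thus also occur between 2 libraries at a cluster that is active in both.

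Sites where a sense and an antisense 5′ end overlap by 10 nt, the geometry of ping-pong partners, numbered 1399 in BX2theta and 926 in BX2*. Of these 563 were the same, 40.2% of the BX2theta sites and 60.8% of the BX2* sites. They held 61.9% of the 4205 pairs of BX2theta (60.4 to 63.3) and 76.6% of the 2149 pairs of BX2* (74.8 to 78.4). At 42AB 10189 sites were the same, with 89.3% of the pairs in BX2theta and 90.9% in BX2*. Sites and pairs were not taken at equal depth, and at P(lacW) BX2theta was the deeper library, with 64503 reads against 37221. The 10 nt overlap at a site also arises by coincidence of abundant ends, and no share of such coincidences was subtracted here.

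To count positions whose use differed, those with at least 20 reads in both libraries together were compared by their share of the reads at the locus. Of 993 such positions of P(lacW), 205 were at least 2-fold higher in BX2theta (20.6%) and 150 at least 2-fold lower (15.1%), 355 in all (35.8%). At 42AB 7787 of 21812 passed in either direction (35.7%), with 20.4% higher and 15.3% lower in BX2theta. The transgene thus had nearly the same share of positions past 2-fold as the control cluster. The share did not fall with depth at P(lacW), being 34.8% at 20 to 49 reads, 39.1% at 50 to 99, 34.7% from 100 to below 200 and 35.7% at 200 or more. At 42AB it was 38.8%, 34.6%, 31.5% and 30.8% over the same classes. The excess of higher over lower calls did not hold at 200 or more reads. There 9 positions were higher and 11 lower in BX2theta at P(lacW), and 448 and 577 at 42AB. In each class of fewer reads more were higher than lower at both loci.

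By strand, with shares taken within the strand, 186 of 563 sense positions of P(lacW) were past 2-fold (33%), 18.7% higher and 14.4% lower in BX2theta. Of 430 antisense positions 169 were past it (39.3%), 23.3% higher and 16% lower. At 42AB the sense strand had 36.2%, with 21% higher and 15.2% lower, and the antisense strand 35.4%, with 20% higher and 15.4% lower. The transgene lay a little below the control cluster on the sense strand and above it on the antisense strand.

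By level in place of share, 438 positions of P(lacW) were at least 2-fold higher in BX2theta (44.1%) and 44 lower (4.43%), 48.5% in all. At 42AB 14.1% were higher and 21.1% lower by level, 35.2% in all. This scaling moved the part of higher calls among all calls to 90.9%, against 57.7% by share, and at 42AB to 40.0%, against 57.2%. Between libraries that share the reporter, BX2theta and BX2OFF, 23.1% of 21376 positions of 42AB were past 2-fold by share, against 32.4% of 21777 between BX2* and BX2OFF.

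Reads were spread over more positions in BX2theta. The 10 most abundant ends of P(lacW) held 10.3% of its reads in BX2theta (10.1 to 10.6) and 12.8% in BX2* (12.4 to 13.1), and the top 100 held 30.3% and 33.8%. The first 50% of reads lay on 386 positions in BX2theta and on 307 in BX2*. The effective number of positions, the inverse of the chance that 2 reads share an end, which does not depend on depth, was 510 in BX2theta and 390 in BX2*. It was 224 and 174 on the sense strand and 368 and 268 on the antisense strand, so that sense reads were the more concentrated in both libraries.

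The same order held at the control locus. At 42AB the effective number was 1360 in BX2theta, 1106 in BX2* and 1422 in BX2OFF, and the 10 most abundant ends held 5.32%, 5.92% and 5.24%. BX2* was thus the most concentrated library at 42AB as well, and its part in the P(lacW) difference was not tested. Leading ends of 42AB were 22565 antisense, with 15621 reads in BX2theta and 11214 in BX2* (share ratio 1.65), and 6234 sense, with 11062 and 10781 (1.24). Antisense 29252 had 13242 and 21729 reads (0.721), 200983 had 13198 and 17187 (0.909) and 203527 had 9639 and 16868 (0.676). Sense 182103 led in BX2*, with 5709 reads in BX2theta and 16042 in BX2* (0.429). The others were 9776 (9212 and 8041 reads, ratio 1.38), 6193 (8939 and 11760, 0.915), 12504 (8898 and 12588, 0.851) and 204346 (6589 and 12982, 0.611).

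Along the transgene all 11 windows of 1000 bp had a higher level in BX2theta. The ratio was 1.31 (1.25 to 1.36) in the window 4001–5000, with 5247 reads in BX2theta against 3935 in BX2*. It was 2.51 (2.40 to 2.63) in 2001–3000, with 6625 against 2586 reads. With the same assumption on the numbering, the ratio in the sequence shared with the reporter was 2.06 (2.02 to 2.11) and in the rest, downstream of it, 1.504 (1.48 to 1.53). The windows did not all follow this division. The first window, nearly all of it shared, had a ratio of 1.55 (1.49 to 1.62), with 5025 reads in BX2theta against 3168 in BX2*. In the last window, outside that transcribed sequence, it was 2.06 (1.91 to 2.23), with 1926 against 914 reads. The short end before the shared sequence had 159 reads in BX2theta and 62 in BX2*, a ratio of 2.51 (1.87 to 3.37). The study's map names only the transcribed sequence in common, so that sequence outside it may occur in the reporter as well. The part of the reporter in these ratios was not tested.

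The strand balance along P(lacW) also differed. Antisense reads were 53.2% in the shared sequence in BX2theta and 49.1% in BX2*, and 35.3% in BX2theta and 39.4% in BX2* in the rest. In 1001–2000 they were 48.9% in BX2theta (48.0 to 49.8) and 39.1% in BX2* (37.8 to 40.4), whereas in 9001–10000 they were 35.6% (34.1 to 37.1) and 48.2% (46.2 to 50.2). The first window was mainly antisense in both, with 70.5% and 66.8%. BX2theta was thus more antisense in the lacZ-containing part and less so over the rest as a whole.

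**Figure D4:**
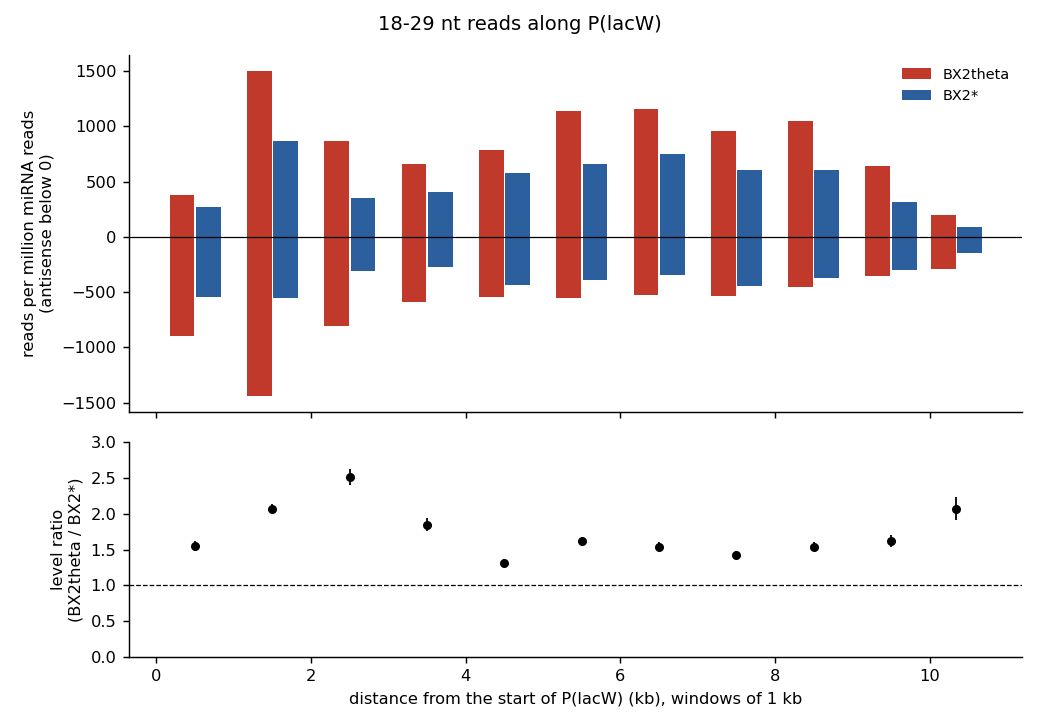
Level of 18–29 nt reads in 11 windows of 1 kb along P(lacW) (top), with sense bars above 0 and antisense bars below 0 for BX2theta (left bar) and BX2* (right bar), and the ratio of both levels with 95% counting intervals (bottom). The ratio lies above the dashed line at 1 in every window, between 1.31 and 2.51, the last window being shorter than the others.

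The 42AB cluster was lower in BX2theta than in BX2* and not evenly so. Among 196 windows of 1000 bp with at least 100 reads, the median ratio of levels was 0.815 and 53 windows lay above 1, with 0 windows at least 2-fold higher in BX2theta and 23 at least 2-fold lower. Of these 23, 18 were within 2-fold of BX2OFF in BX2theta and 5 were also at least 2-fold below BX2OFF. Between BX2* and BX2OFF 7 windows were at least 2-fold higher in BX2* and 8 lower.

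One stretch of 42AB was nearly empty in BX2theta. From 193601 to 195200 of the cluster coordinates, 1600 bp chosen after values were seen as the longest run of 100 bp windows under 0.1 times the BX2* level, 154 BX2theta reads began, against 13218 in BX2* and 7690 in BX2OFF. The ratio of levels was 0.0114 (0.00974 to 0.0134). Reads began at 75 positions there in BX2theta, 515 in BX2* and 450 in BX2OFF. The 1000 bp before it had 4693, 5384 and 4942 reads in BX2theta, BX2* and BX2OFF, and the 1000 bp after it 3159, 5543 and 3079. BX2theta thus departed from both other libraries at this place, and the cause was not tested. The ratio for 42AB as a whole was 0.821, and 0.825 without the stretch.

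The spacing of 5′ ends on 1 strand was measured as pairs of ends at each distance, each pair of positions counting as often as the position with fewer reads, divided by their mean over 6 to 60 nt. At the piRNA lengths of 25 to 29 nt, P(lacW) gave 1.02 in BX2theta and 1.01 in BX2*, from 38109 and 18588 pairs. On the antisense strand it was 1.05 in BX2theta and 1.11 in BX2*, with the highest value among 20 to 32 nt at 26 nt in both (1.13 and 1.18). On the sense strand it was 0.989 and 0.941. Summed over the strands, pairs at the spacing of head-to-tail piRNAs were thus close to the mean in both libraries, and a little above it on the antisense strand in both. This rests on the way of counting and on the distances averaged. With products of read numbers in place of the smaller number the ratio was 1.16 in BX2theta and 1.07 in BX2*. Divided by the mean over 6 to 100 nt it was 1.06 in both libraries.

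At 42AB the same ratio was 1.11 in BX2theta, 1.15 in BX2* and 1.13 in BX2OFF, with the highest value of both strands together at 27 nt in each of them. At 21 nt it was 0.908 in BX2theta and 0.885 in BX2* at 42AB, and 0.971 and 0.912 at P(lacW). Pairs at the length of siRNAs were thus below the mean in both libraries at both loci. The highest values were at adjacent nucleotides, with 2.24 in BX2theta and 2.51 in BX2* at P(lacW), and 2.57 and 3.01 at 42AB. In BX2OFF the P(lacW) reads gave only 85 pairs at 25 to 29 nt, too few to read a spacing. Because the tables give no length for a position, siRNA and piRNA ends could not be separated in these counts.

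**Figure D5:**
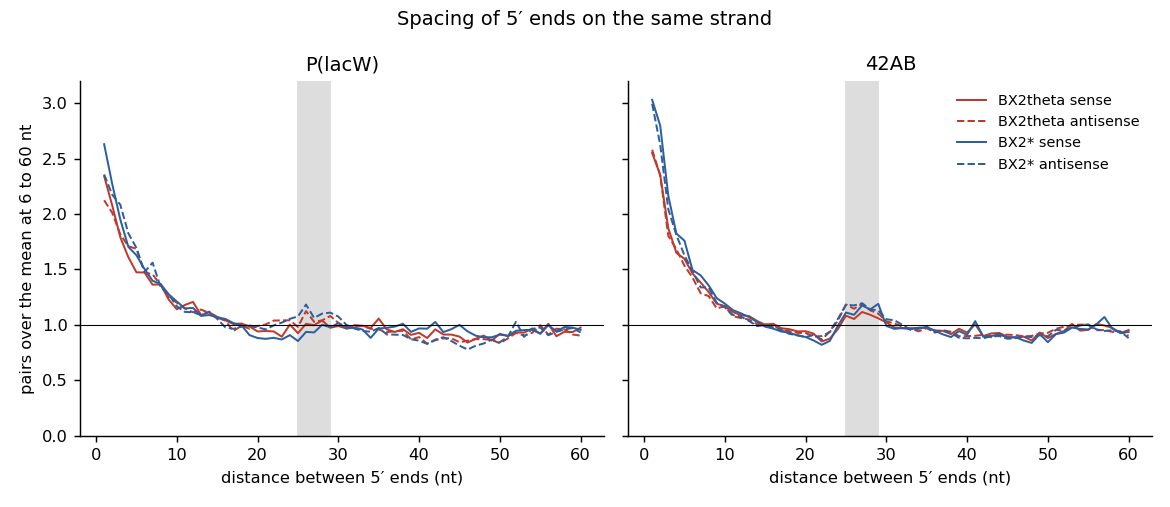
Pairs of 5′ ends on the same strand at distances of 1 to 60 nt, divided by their mean at 6 to 60 nt, for BX2theta (red) and BX2* (blue), with sense as full and antisense as dashed lines and 25 to 29 nt shaded. At 42AB (right) all 4 lines rise above 1 in the shaded range, and at P(lacW) (left) the antisense lines reach 1.13 in BX2theta and 1.18 in BX2* at 26 nt.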

How the data were processed

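After adapter removal the authors used Bowtie (the submitters' processing notes name Bowtie2 2.0.3) and FlyBase release 5.49, allowing a single mismatch, and tabulated reads of 18–29 nt in Galaxy by strand and length or 5′ position. The deposited values are signed counts multiplied by 1 factor per library, which scales it to 1000000 miRNA reads, as the authors' library annotation gives it. Dividing by the factor gave whole reads for 100% of values within 0.01, and levels were recomputed from these reads and the annotated miRNA totals. Coordinates are those of the tables, 1 to 10690 for P(lacW) and 1 to 247860 for 42AB, with sense as the forward strand of each. P(lacW) is given as longer than this in the study's methods. Whether the study's map of the shared part has the same numbering could not be checked. The study's methods state that its maps took reads with a unique alignment to the reference sequence, and the table rows carry the word uni, so that ends within sequence repeated inside a reference may be missing. All copies in the array are represented by 1 sequence. The remaining libraries of the series were not used. No sequences are shown.

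Shares and levels have Wilson intervals, and ratios have intervals from the binomial shares. With 1 library per genotype no model was fitted. For 0 reads the upper limit used was 3 reads. Named positions were the 5 most abundant per strand and library and the 3 most abundant private ones at P(lacW), and the 3 and 1 at 42AB. The libraries, positions and measures were chosen with earlier results of these data known. Alternatives were the other scaling, other lengths, minimums, matching and pair counts, and P(lacW) without the part shared with the reporter. Counting functions were tested on simulated data with planted spacings. Python 3.11.15 was used with numpy 2.4.6, scipy 1.17.1 and matplotlib 3.10.9.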

Additional observations from a re-analysis of the deposited data

How the results depend on the processing

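Of 28 values computed under alternatives, 7 stayed within counting error or 1.5 times a count and 21 moved further. The P(lacW) spacing difference, which is within its counting error, changed sign under some of them. The total of positions past 2-fold stayed within 1.5 times by level in place of share, but at 42AB the majority turned, with 3078 higher and 4609 lower in BX2theta by level, against 4452 and 3335 by share. At P(lacW) the split was 438 and 44, against 205 and 150. Scaled to genome-matched reads, the 23–29 nt level ratio of BX2theta to BX2* was 1.46 at P(lacW), against 1.64, and 0.729 at 42AB, against 0.815. With 24–29 nt reads it was 1.66 and 0.824. Single length classes were scaled to miRNA reads only. The spectrum distance at 42AB was 2.99% over 23–29 nt, against 3.51%. The share of reads on shared positions, BX2theta minus BX2*, was -3.33 points at P(lacW) and -0.537 at 42AB. It became -7.00 and -0.971 when the other library needed at least 2 reads, -1.23 and -0.177 within 1 nt, and -4.78 at P(lacW) outside the part shared with the reporter. At equal depth, an alternative chosen after seeing the data, it was -0.749 and -0.884. Without the leading end of each strand, the top 10 difference at 42AB was -0.455 points, against -0.607. The difference in spacing at 25 to 29 nt was 0.00396 at P(lacW) and -0.0386 at 42AB. It was 0.0823 and -0.0224 with products of read numbers, at P(lacW) -0.00113 with each pair once and -0.0233 outside the shared part, and at 42AB -0.00527 with each pair once and -0.0445 with the mean over 6 to 100 nt. With at least 50 reads, 127 positions of P(lacW) and 3546 of 42AB were past 2-fold, 37.6% and 32.6% of those counted, and with at least 20 reads 196 of 597 outside the shared part of P(lacW) were past it, 32.8% against 35.8% over all its positions. No paired analysis was possible because each genotype has 1 library, and for the same reason no library could be left out. Depth limits the BX2OFF values at P(lacW), which rest on 902 reads.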
